A study of Mus musculus with 8 samples.

Results

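RNA of RasV12 cells given CBD was compared with RNA of RasV12 cells given DMSO, the vehicle, over every named gene that reached 1 FPKM (fragments mapped to a gene, scaled to the length of its transcript and to the library's depth) in either group. This level was reached by 11095 genes of the 11355 that reached it in either line of the series. Of the 11095, 20 had no test by the authors, and 11075 were tested. The genes nearest the limit were Sh3gl3 at 1.0004 and Gm16023 at 1.00095 FPKM inside it, and Dmpk at 0.999242 and Gm5901 at 0.998838 FPKM outside it.

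All cells were ASZ cells, a line grown from a mouse basal cell carcinoma of the skin, and the title of the series names the primary cilium, Hedgehog and Ras/MAPK. The RasV12 cells are ASZ cells that express RasV12, the small GTPase Ras in an active mutant form, and both of their groups carry it. The other line, called ASZ here, has the wild-type genotype and received the same agents, which gave 4 groups of 2 libraries. What CBD stands for is not said in the labels, which also give no dose, no exposure time and no statement of which Ras gene was expressed, by which promoter, or in how many clones. They number the replicates without saying whether these were separate cultures, so any spread between libraries may be technical. How the authors' test estimated the spread behind its p-values is not known from the sources used here. Each group has 1 pooled FPKM value per gene. A value per library, an SD and a replicate overlap therefore cannot be given, and the errors printed here are standard errors (SE) of the log2 ratio implied by the authors' p-values.

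Ras passes signals from receptor tyrosine kinases at the cell surface through the kinases Raf, MEK and ERK to transcription factors in the nucleus. Cells dampen this route with genes it switches on itself, among them the Dusp phosphatases and the Sprouty and Spred proteins. Immediate early genes such as Fos and Egr1 respond to growth signals and to stress within a short time and without new protein synthesis, and their messages decay fast. The circadian clock is a feedback loop in which Clock and Bmal1 switch on the Per, Cry and Rev-erb genes that then repress them, and it runs in skin cells too. Basal cell carcinoma is the skin tumour best known for an active Hedgehog pathway, which signals through the primary cilium.

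The RasV12 cells carried the markers of basal keratinocytes in both groups. All 8 such markers were measured, with a summed level of 9679 FPKM in DMSO and 10737 FPKM in CBD. Krt5, a keratin of the basal layer, was at 3408 FPKM in DMSO against 4583 in CBD (adjusted p 0.361). Krt14, its partner keratin, was at 4745 and 3609 FPKM (adjusted p 0.361), and it passed as lower with both rescalings defined below. Trp63, the transcription factor of the basal layer, fell from 91.95 to 53.2 FPKM (adjusted p 0.0217). Defining markers of other cells were near 0: the 7 fibroblast markers in the table summed to 0.271 and 0.481 FPKM, the leukocyte markers Ptprc and Cd3e reached no more than 0.00494 FPKM, and the endothelial markers Cdh5 and Kdr were listed at 0. In each of the leukocyte, endothelial, melanocyte and simple epithelium lists, 1 gene reached 1 FPKM. These were Cd68 at 31.7 and 53.8, Pecam1 at 16.4 and 23.3, Pmel at 0.602 and 1.14 and, of simple epithelium, Epcam at 157 and 240.3 FPKM. In bulk RNA of this kind, fewer cells of a type and less RNA per cell cannot be told apart.

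The groups were not scaled to a common total. FPKM summed to 437753 in DMSO and 659525 in CBD, while the median log2 ratio of all genes tested was -0.01. Scaling both groups to equal FPKM sums moves every log2 ratio by -0.59, and scaling them to equal sums of FPKM times transcript length (equal mass below) moves it by -0.44. The 10 most abundant genes held 9.03% of FPKM in DMSO and 8.76% in CBD. Depth, read from the smallest step between low FPKM values, was near 16700000 fragments per library in DMSO and 10700000 in CBD if FPKM is scaled to each group's own fragments, and unequal scaling would move that estimate. The median implied SE was 0.53 log2 units for genes at 1 to 3 FPKM and 0.27 for genes at 100 FPKM or more.

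CBD was followed by both gains and losses over a large share of the measured genes. With the authors' p-values adjusted by the Benjamini-Hochberg method over all 11075 genes, 2072 genes rose (18.7% of those tested) and 2707 fell (24.4%). All 2707 also passed as lower with both rescalings, but these move every log2 ratio down, so no loss could fail there. This is therefore no check on the losses. Of the 2072 that rose, 254 still passed as higher with equal FPKM sums and 663 with equal mass. In all, 254 genes passed as higher (2.29%) and 4682 as lower (42.3%) with equal FPKM sums, and 663 (5.99%) and 4137 (37.4%) with equal mass. The counts of gene lists below are read against 18.7% and 24.4%, and 4 lists lay within 5 percentage points of both, namely the Ras cascade, NRF2 and glutathione, the interferon response and TGF-beta and BMP. A gene said below to have risen also passed both rescalings unless the sentence says otherwise, and a gene that fell passed them by construction.

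Sizes were read on the scale log2((CBD + 1)/(DMSO + 1)), called the change here, which understates the change of genes at low levels. Losses outnumbered gains at 1 and at 2 units, and gains outnumbered losses at 3. Among genes that rose, 885 changed by at least 1 unit, 47 by at least 2 and 15 by at least 3. Among genes that fell, these counts were 1704, 206 and 10. The genes that rose had a median level of 27.7 FPKM in DMSO, and those that fell 9.01 FPKM. The lowest p-value of the table, 5e-05, which gives an adjusted p of 0.000324, was shared by 1707 genes. A gene said below to have changed had an adjusted p of 0.01 or less where none is given, and an SE given as at most a value comes from the lowest p.

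**Figure D1:**
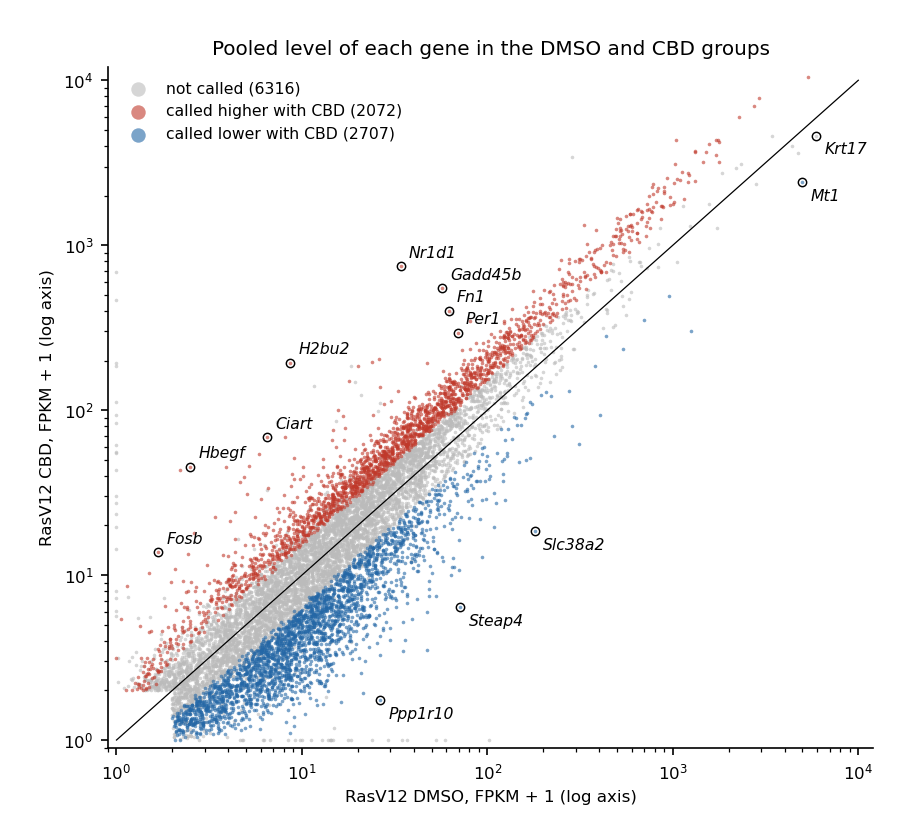
Level of each of the 11095 genes at 1 FPKM or more in RasV12 cells, DMSO on the x axis and CBD on the y axis, as FPKM + 1 on log axes, with 1 point per gene and the line of equal level in black. The 20 genes without a test are drawn as not called. Genes that rose are red, genes that fell are blue, and named genes are ringed. The red points lie close above the line at high levels, the blue points spread farther below it at low levels, and Nr1d1, H2bu2 and Hbegf stand far above it.

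The 15 genes with the largest gains held clock genes, histone genes, growth arrest genes and immediate early genes. H2bu2, a histone H2B gene, was at 7.60 FPKM in DMSO against 193 in CBD, a 25.4-fold rise (log2 ratio 4.67, SE at most 1.151). Nr1d1, the clock repressor Rev-erb alpha, went from 33.03 to 746 FPKM (22.6-fold, log2 ratio 4.50, SE at most 1.11). Rhov, a small GTPase, rose 35.2-fold from 1.20 to 42.2 FPKM and Hbegf, a growth factor for the EGF receptor, 29.9-fold from 1.49 to 44.5 FPKM. The stress-responsive kinase gene Plk3 rose from 4.89 to 53.5 FPKM, the survival kinase gene Pim3 from 16.9 to 149 and Ptgs2, which makes prostaglandins, from 3.85 to 38.2. Histone genes H4c9 (2.90 to 44.0 FPKM) and H1f2 (23.0 to 194 FPKM) were also among the 15. The others were Ciart, Gadd45a, Gadd45b, Ddit3, Csrnp1 and Fosb, whose values follow with their groups.

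The 15 genes with the largest losses had varied roles. Ppp1r10, a nuclear partner of protein phosphatase 1, was at 25.4 FPKM in DMSO against 0.747 in CBD, 34.0-fold lower (log2 ratio -5.09, SE at most 1.25). Depp1, a gene that Foxo factors switch on in other cells, fell 18.2-fold from 46.0 to 2.53 FPKM. Steap4, a metal reductase, fell 13.0-fold from 70.4 to 5.41 FPKM. Depp1 and Steap4 were below 1 FPKM in the ASZ line. Slc38a2, a carrier of neutral amino acids, fell 10.2-fold from 179 to 17.5 FPKM (log2 ratio -3.35, SE at most 0.83). Pik3r1, the regulatory subunit of PI3 kinase, fell 11.3-fold from 34.7 to 3.07 FPKM, and Trp53inp1, a p53 target, from 15.2 to 0.689 FPKM. Gemin4, of the complex that assembles spliceosomal particles, fell from 34.1 to 2.49 FPKM, and Ddx6, an RNA helicase of mRNA decay, from 46.5 to 4.98. Ampd3, which deaminates AMP, fell from 20.5 to 0.924 FPKM, the phosphatase gene Ptpn3 from 12.01 to 0.646 and Ankrd49 from 11.03 to 0.622. The rest were the unnamed transcripts 4930562F07Rik (19.8 to 1.54 FPKM, adjusted p 0.0167) and 4930523C07Rik (25.4 to 2.28 FPKM) and 2 table rows that merge a gene with a microRNA. Those rows were Ccnf with Mir5134 (28.8 to 3.02 FPKM) and Cd97 with Mir1668 (7.62 to 0.106 FPKM, adjusted p 0.0299).

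The promoters of 3 of the genes with the largest gains are shown here because they carry short motifs that are easy to see in the letters. Each runs from 250 bases before to 50 after the start of the most upstream transcript in RefSeq (build GRCm38.p6), read 5′ to 3′ on the gene's strand, and capitals mark the motifs searched on both strands.
H2bu2 lies at chr11:58948661-58948960 on the plus strand. Capitals mark TATAAA, the letters of a TATA box, at 2 places, and CCAAT at 4, each as written or as its reverse complement.
H2bu2: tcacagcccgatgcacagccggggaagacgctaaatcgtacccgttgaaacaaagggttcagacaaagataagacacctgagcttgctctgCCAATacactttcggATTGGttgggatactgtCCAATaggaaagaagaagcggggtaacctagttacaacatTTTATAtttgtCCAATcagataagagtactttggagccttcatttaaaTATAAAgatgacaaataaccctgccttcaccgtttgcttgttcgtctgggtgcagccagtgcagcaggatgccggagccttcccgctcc
Ciart lies at chr3:95882179-95882478 on the minus strand. Capitals mark CACGTG, the E-box that Clock and Bmal1 bind, at 3 places, and CCAAT at 3.
Ciart: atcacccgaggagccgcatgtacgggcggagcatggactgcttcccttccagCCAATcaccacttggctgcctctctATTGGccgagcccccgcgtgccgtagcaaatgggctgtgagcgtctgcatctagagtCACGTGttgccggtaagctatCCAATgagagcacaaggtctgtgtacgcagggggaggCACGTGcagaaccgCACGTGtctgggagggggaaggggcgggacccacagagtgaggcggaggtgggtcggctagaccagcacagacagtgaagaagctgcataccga
Gadd45b lies at chr10:80929841-80930140 on the plus strand. Capitals mark CACGTG at 1 place, TATAAA at 1 and CCAAT at 2.
Gadd45b: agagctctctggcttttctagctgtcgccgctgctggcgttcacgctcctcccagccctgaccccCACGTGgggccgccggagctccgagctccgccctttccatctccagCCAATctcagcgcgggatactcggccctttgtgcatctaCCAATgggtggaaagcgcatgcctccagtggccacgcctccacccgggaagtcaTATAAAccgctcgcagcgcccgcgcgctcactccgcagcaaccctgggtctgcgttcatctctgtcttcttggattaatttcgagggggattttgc
Of 27025 promoters of this length in the RefSeq table, 7.24% held CACGTG, 14.2% TATAAA and 38.0% CCAAT, so such letters are common and mark no proven binding site.

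Clock genes went both ways, with several repressors higher and both activators lower. Of 16 tested members of the core clock list, 7 rose and 5 fell, and with equal FPKM sums 6 passed as higher and 8 as lower. Among repressors of Clock and Bmal1, Ciart rose 12.3-fold from 5.51 to 67.8 FPKM (log2 ratio 3.62, SE at most 0.89) and Per1 4.32-fold from 68.0 to 294 FPKM. Bhlhe40 rose from 29.2 to 90.002 FPKM and its paralog Bhlhe41 from 13.7 to 40.9, both repressors that bind the E-box. Nfil3, which opposes the output factor Dbp, rose from 30.3 to 84.3 FPKM, and Dbp itself from 12.01 to 34.4 FPKM (adjusted p 0.0131) with neither rescaling passed. Other repressors fell, with Per2 going from 2.62 to 0.692 FPKM, Cry1 from 9.13 to 4.62 (adjusted p 0.0152) and Cry2 from 4.46 to 1.77. The activators fell together: Arntl, the gene of Bmal1, went from 14.7 to 3.50 FPKM and Clock from 17.2 to 3.22. Nr1d2, the paralog of Nr1d1, was at 13.2 and 8.47 FPKM (adjusted p 0.0675), and Per3 (2.43 and 1.59 FPKM, adjusted p 0.181) and Hlf (13.5 and 9.93 FPKM, adjusted p 0.188) did not pass either, although all 3 passed as lower with both rescalings. Tef was at 36.7 and 55.4 FPKM (adjusted p 0.0535), and Npas2 and Rora were under 1 FPKM. In the ASZ line 6 of 15 tested members rose and 7 fell.

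**Figure D2:**
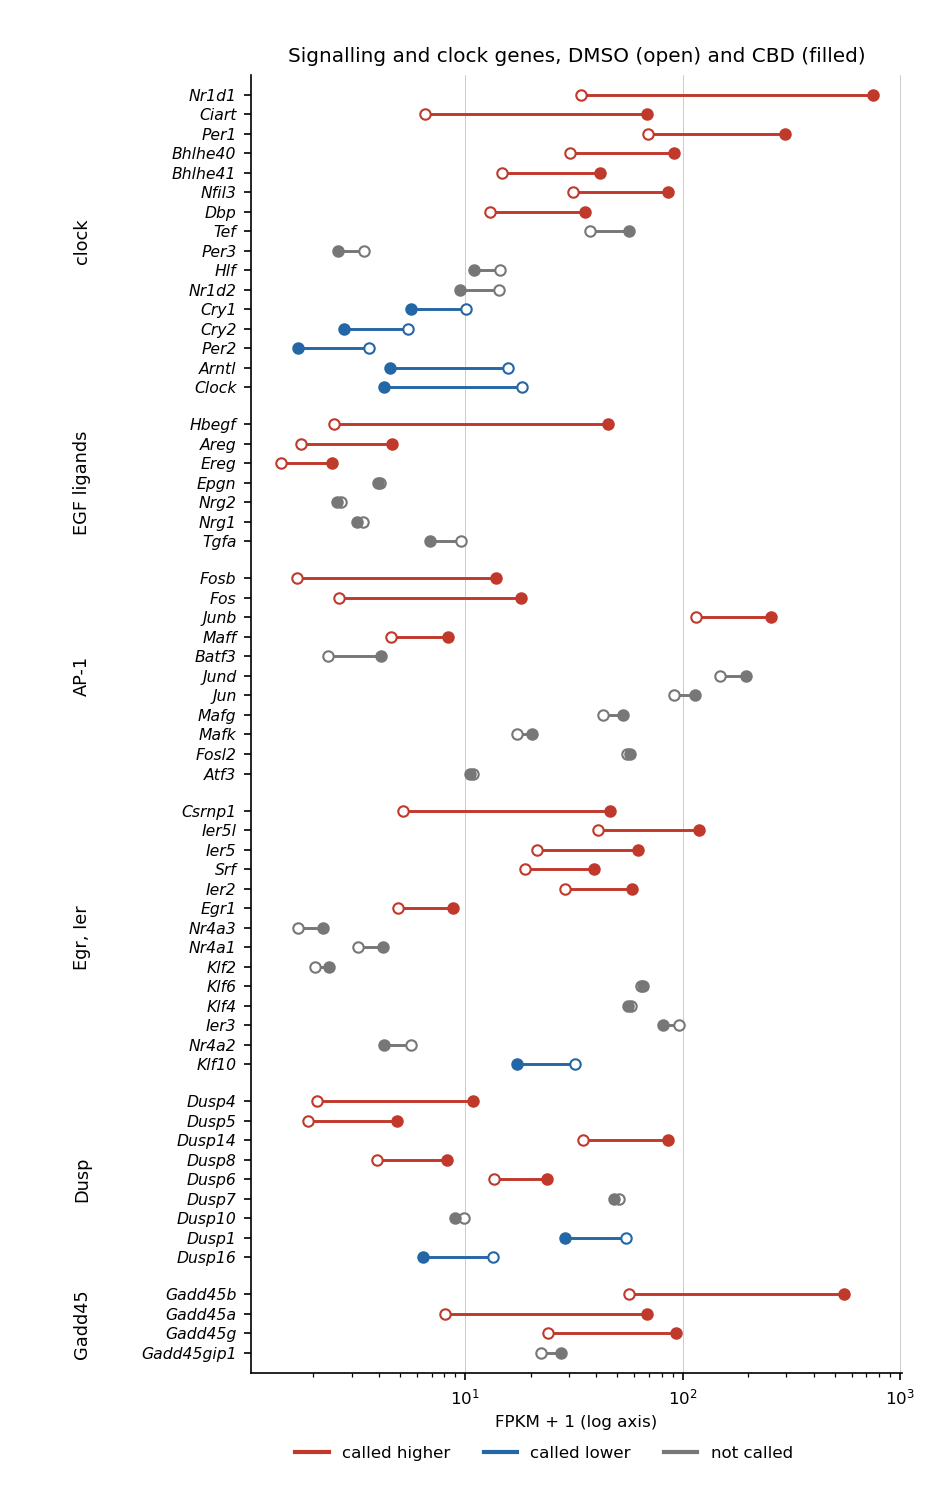
Level of each tested member of the clock, EGF ligand, AP-1, Egr and Ier, Dusp and Gadd45 lists in RasV12 cells, as pooled FPKM + 1 on a log axis, with DMSO open and CBD filled. Genes that rose are red, genes that fell are blue and genes that did not pass are grey. The clock panel splits into red and blue genes, and 3 of the 4 Gadd45 genes are red.

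Some ligands of the EGF receptor family rose, and several receptors fell. Of 7 ligands tested, 3 rose and 0 fell, and with equal FPKM sums 1 passed as higher and 1 as lower. Hbegf is given above, at 1.49 and 44.5 FPKM (log2 ratio 4.90, SE at most 1.21). Areg, amphiregulin, rose from 0.765 to 3.59 FPKM (adjusted p 0.00683) and Ereg, epiregulin, from 0.416 to 1.44 (adjusted p 0.00567), both low and both without passing with equal FPKM sums. Tgfa, the ligand TGF-alpha, was at 8.59 and 5.89 FPKM (adjusted p 0.143) and passed as lower with both rescalings. Epgn (3.05 and 2.99 FPKM), Nrg1 (2.37 and 2.18 FPKM) and Nrg2 (1.69 and 1.57 FPKM) did not pass, and Btc, Egf and Nrg4 were under 1 FPKM.

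The Areg promoter and that of Ppp1r15a, a stress gene described further on, are shown because both hold the full palindrome TGACGTCA. This is the cAMP response element (CRE), the site that Creb and Atf factors bind. It was in 1.85% of the 27025 promoters.
Areg lies at chr5:91139349-91139648 on the plus strand, with TGACGTCA and TATAAA in capitals.
Areg: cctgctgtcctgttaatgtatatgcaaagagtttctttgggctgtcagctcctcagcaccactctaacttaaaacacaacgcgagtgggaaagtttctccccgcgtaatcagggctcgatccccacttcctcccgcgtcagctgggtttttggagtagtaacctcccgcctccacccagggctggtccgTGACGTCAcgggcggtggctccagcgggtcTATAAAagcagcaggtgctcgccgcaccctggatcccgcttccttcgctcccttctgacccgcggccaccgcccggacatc
Ppp1r15a lies at chr7:45526219-45526518 on the minus strand, with TGACGTCA and TATAAA in capitals. Here TGACGTCA begins at position -12 and TATAAA at position 15 from the annotated start, so this TATAAA lies after it.
Ppp1r15a: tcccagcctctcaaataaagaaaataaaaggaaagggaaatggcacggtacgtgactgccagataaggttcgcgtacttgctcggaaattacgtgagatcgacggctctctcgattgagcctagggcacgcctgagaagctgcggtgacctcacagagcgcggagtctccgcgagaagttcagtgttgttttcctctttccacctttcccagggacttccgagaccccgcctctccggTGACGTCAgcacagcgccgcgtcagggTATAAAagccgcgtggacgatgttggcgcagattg

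Among 13 receptor tyrosine kinases tested, 1 rose and 6 fell (0 and 11 with equal FPKM sums, and 0 and 9 with equal mass), with a median change of -0.57 against -0.01 over all genes. Erbb3, a receptor for neuregulins, fell 9.62-fold from 11.7 to 1.22 FPKM and its partner Erbb2 from 33.9 to 8.68 (adjusted p 0.0261). The ephrin receptor Ephb4 fell from 69.5 to 15.4 FPKM and Met, the receptor for hepatocyte growth factor, from 33.2 to 14.6. The FGF receptors differed in their values. Fgfr2 fell from 41.2 to 10.5 FPKM and Fgfr3 from 5.82 to 0.780, while Fgfr1 was at 41.6 and 39.5 (adjusted p 0.849). Egfr itself, the receptor for Hbegf, was at 20.3 and 16.6 FPKM (adjusted p 0.461), Igf1r at 18.8 and 17.5 (adjusted p 0.768), Insr at 7.86 and 5.56 (adjusted p 0.144), Ddr1 at 154 and 104 (adjusted p 0.0638) and Epha2 at 24.9 and 36.9 (adjusted p 0.0821). Axl rose from 30.8 to 61.2 FPKM, with neither rescaling passed.

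Genes of the Ras cascade rose and fell at about the rate of all genes. Of 20 genes tested, 4 rose and 5 fell (0 and 11 with equal FPKM sums, and 1 and 9 with equal mass). The shares as deposited, 20% and 25%, were near the 18.7% and 24.4% over all genes tested. Hras rose from 60.2 to 94.4 FPKM (adjusted p 0.0391), Mapk3, the gene of ERK1, from 65.9 to 136 and Map2k2, the gene of MEK2, from 48.2 to 87.1, none of them with either rescaling. Rras, a Ras relative, rose from 55.6 to 139 FPKM but not with equal FPKM sums. The family member Nras had 33.7 FPKM in DMSO and 30.4 in CBD (adjusted p 0.667) and passed as lower with equal FPKM sums. The table does not separate an introduced Ras message from the cell's own. Sos1, which loads Ras with GTP, fell 4.62-fold from 8.61 to 1.86 FPKM and Sos2 from 4.45 to 1.19 (adjusted p 0.000324). Of the proteins that switch Ras off, Rasa1 fell from 9.49 to 3.07 FPKM and Rasal2 from 4.80 to 1.04 (adjusted p 0.0392), and Nf1 was at 5.53 and 3.77 (adjusted p 0.102). Araf (12.9 and 17.1 FPKM), Braf (4.56 and 3.72 FPKM), Map2k1 (21.7 and 19.5 FPKM) and Grb2 (105 and 134 FPKM) did not pass.

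Feedback genes of the pathway went both ways. Of 9 MAP kinase phosphatases tested, 5 rose and 2 fell (1 and 3 with equal FPKM sums, and 3 and 2 with equal mass). Dusp4, a nuclear phosphatase, rose 9.25-fold from 1.07 to 9.90 FPKM. Dusp5 rose from 0.894 to 3.83 FPKM (adjusted p 0.0132) and Dusp6, which acts on ERK in the cytoplasm, from 12.5 to 22.8 (adjusted p 0.0129), both with neither rescaling. Dusp8 (2.93 to 7.23 FPKM) and Dusp14 (33.9 to 84.2 FPKM) rose without passing with equal FPKM sums. Dusp1, an immediate early phosphatase, fell from 54.1 to 27.6 FPKM and Dusp16 from 12.4 to 5.38. Spry1, an inhibitor of receptor signalling, rose 9.94-fold from 3.62 to 35.9 FPKM, whereas its paralog Spry2 fell from 8.82 to 4.78 (adjusted p 0.0480). Of the Spred genes, Spred1 fell from 15.9 to 5.59 FPKM and Spred2 from 32.9 to 8.42, as did the ETS factor gene Ets2, from 76.4 to 32.5. Etv4 rose from 7.43 to 17.8 FPKM but not with equal FPKM sums. In this Sprouty, Spred and ETS list of 9, 3 rose and 4 fell.

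Some of the immediate early genes rose and most did not pass. Of 11 AP-1 factors, which bind DNA as pairs of Fos and Jun proteins or their relatives, 4 rose and 0 fell (2 and 0 with equal FPKM sums, and 3 and 0 with equal mass). Fosb rose 18.8-fold from 0.683 to 12.8 FPKM and Fos 10.5-fold from 1.62 to 17.1. Junb rose from 114 to 254 FPKM but not with equal FPKM sums, and Maff from 3.55 to 7.35 (adjusted p 0.0340) with neither rescaling. Jun (89.8 and 113 FPKM), Jund (148 and 195 FPKM), Fosl2 (54.6 and 56.0 FPKM) and Atf3 (9.82 and 9.47 FPKM) did not pass. Of 14 Egr, Nr4a and Ier genes, 6 rose and 1 fell (3 and 4 with equal FPKM sums, and 4 and 3 with equal mass). Csrnp1, a nuclear protein, rose 10.8-fold from 4.17 to 45.1 FPKM, Ier5 from 20.5 to 61.1 and Ier5l from 39.6 to 118. Egr1, the zinc finger factor, rose from 3.90 to 7.79 FPKM (adjusted p 0.0167) and Ier2 from 27.7 to 57.3, both with neither rescaling, and Srf, the factor that drives many such genes, from 17.9 to 38.1 without passing with equal FPKM sums. Klf10 fell from 30.9 to 16.4 FPKM. Of 9 Myc network genes 0 rose and 3 fell. The transcription factor Myc was at 23.1 and 29.4 FPKM (adjusted p 0.323), and its antagonist Mnt fell 4.86-fold from 15.9 to 3.26 FPKM, its partner Max from 15.5 to 8.98 (adjusted p 0.0393) and Mxd1 from 2.21 to 0.923 (adjusted p 0.0246).

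Growth arrest genes of the Gadd45 family rose, while p53 targets went both ways. All 3 Gadd45 genes, which code for small proteins that act on stress kinases and cell cycle kinases, passed with every scaling. Gadd45b rose 9.84-fold from 55.7 to 549 FPKM (log2 ratio 3.30, SE at most 0.81), Gadd45a 9.57-fold from 7.06 to 67.6 and Gadd45g 3.99-fold from 23.1 to 92.1. Gadd45gip1, the fourth gene of the list and a partner of the Gadd45 proteins, was at 21.4 and 26.5 FPKM (adjusted p 0.689). Of 17 p53 targets, 2 rose and 6 fell (2 and 12 with equal FPKM sums, and 2 and 11 with equal mass). The stress kinase genes Plk3 (4.89 to 53.5 FPKM) and Plk2 (16.1 to 76.5 FPKM) were the 2 that rose. Mdm2, which marks p53 for destruction, fell from 17.3 to 6.73 FPKM, the antiproliferative gene Btg2 from 15.8 to 4.70 and Tigar, a metabolic p53 target, from 9.58 to 1.80. Cdkn1a, the cell cycle inhibitor p21, was at 56.4 and 37.3 FPKM (adjusted p 0.0810) and Trp53 at 118 and 100.1 (adjusted p 0.490), and both passed as lower with both rescalings.

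Genes of the Bcl2 family, which set the threshold for cell death at the mitochondrion, were mixed. Of 13 tested, 4 rose and 3 fell (0 and 4 with equal FPKM sums, and 2 and 4 with equal mass). Pmaip1, the death gene Noxa, rose from 16.03 to 36.3 FPKM and the survival gene Bcl2l2 from 4.32 to 10.5, both without passing with equal FPKM sums. Bax, which opens the outer membrane, rose from 37.4 to 79.2 FPKM and Bbc3, the gene Puma, from 2.50 to 5.35 (adjusted p 0.0316), with neither rescaling. Death-promoting genes also fell, with Bid going from 35.7 to 6.497 FPKM, Bmf from 8.45 to 0.808 and Bcl2l11, the gene Bim, from 5.45 to 2.59 (adjusted p 0.0249). Mcl1, a survival gene with a short-lived message, was at 51.8 and 51.9 FPKM (adjusted p 0.997).

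As deposited, genes of stress pathways that act on translation and protein folding rose in part. Most of these gains did not pass with equal FPKM sums. In the integrated stress response, through which Atf4 switches on genes when translation is slowed, 8 rose and 3 fell of 20 (2 and 4 with equal FPKM sums, and 6 and 4 with equal mass). Ddit3, the factor Chop, rose 9.62-fold from 19.2 to 184 FPKM (SE 0.97, adjusted p 0.00340), and Ppp1r15a, the phosphatase subunit Gadd34 that restarts translation, 3.11-fold from 7.67 to 23.9. Slc7a11, the cystine carrier, fell from 11.3 to 2.29 FPKM and Ddit4, an inhibitor of mTOR, from 66.1 to 21.6. Of 21 genes of the unfolded protein response of the endoplasmic reticulum, 10 rose and 5 fell (0 and 8 with equal FPKM sums, and 3 and 6 with equal mass). The chaperones Calr (272 to 687 FPKM) and Hspa5 (167 to 361 FPKM) rose without passing with equal FPKM sums. Syvn1, a ubiquitin ligase of the same compartment, fell from 16.6 to 5.27 FPKM (adjusted p 0.0494) and Xbp1, a transcription factor of the response, from 38.9 to 16.9. Of 19 aminoacyl-tRNA synthetases, which charge tRNAs with amino acids, 10 rose and 1 fell, with 0 and 1 by equal FPKM sums. Kars rose from 76.7 to 183 FPKM without passing with equal FPKM sums, and Iars was the only one of the 19 that fell, from 18.7 to 4.76.

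Several carriers of amino acids fell. Of 14 tested, 1 rose and 7 fell (0 and 11 with equal FPKM sums, and 1 and 10 with equal mass). Slc38a2 is given above, and its paralog Slc38a1 fell 4.06-fold from 27.1 to 6.68 FPKM. Slc6a6, the taurine carrier, fell from 124 to 27.5 FPKM, Slc1a4, a carrier of small neutral amino acids, from 43.4 to 18.01 and Slc7a1, a carrier of arginine and lysine, from 19.6 to 8.48. Slc7a5, a carrier of large neutral amino acids, rose from 21.2 to 45.1 FPKM without passing with equal FPKM sums, while its partner Slc3a2 was at 247 and 213 (adjusted p 0.524) and passed as lower with both rescalings.

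Genes of glutathione and of NRF2, the factor of the oxidative stress response, were mixed. Of 19 tested, 4 rose and 5 fell (0 and 9 with equal FPKM sums, and 0 and 8 with equal mass). Gclc, the catalytic subunit of the first step of glutathione synthesis, fell 6.39-fold from 64.7 to 10.1 FPKM, while its regulatory subunit Gclm was at 28.6 and 26.2 (adjusted p 0.746). Nfe2l2, the gene of NRF2, fell from 35.4 to 16.8 FPKM, Txnrd1, which reduces thioredoxin, from 16.2 to 5.09 and G6pdx, which makes NADPH, from 19.2 to 8.83 (adjusted p 0.0244). Gpx1 (278 to 465 FPKM, adjusted p 0.0175), Gpx4 (144 to 253 FPKM), Hmox1 (11.01 to 19.4 FPKM, adjusted p 0.0340) and Taldo1 (99.2 to 167 FPKM, adjusted p 0.0148) rose with neither rescaling. Among 6 genes of the aryl hydrocarbon receptor, 0 rose and 1 fell, namely Cyp1b1, which oxidises hydrocarbons and steroids, from 69.1 to 9.76 FPKM. Cyp1a1 was listed at 0 in both groups.

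Chaperones of the cytosol divided. Of 19 tested, 6 rose and 6 fell, and 0 passed as higher with either rescaling. Hsp90ab1, a constitutive Hsp90 gene, went from 1055 to 2505 FPKM and Hspa8, the constitutive Hsp70 gene, from 669 to 1431, rises that passed as deposited only. Dnajb1, a partner of Hsp70, fell from 101 to 37.5 FPKM, Chordc1, a partner of Hsp90, from 20.6 to 8.37 and Hspa1b, an inducible Hsp70 gene, from 67.9 to 34.6. Its near-identical copy Hspa1a was at 2.90 and 2.66 FPKM (adjusted p 0.833), and reads of the pair could have been split between copies.

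Many genes that run mitosis fell, while the cyclins and inhibitors of the G1 phase went both ways. Of 13 mitotic kinesins, the motors that build and use the spindle, 0 rose and 9 fell (0 and 12 with equal FPKM sums, and 0 and 10 with equal mass), with a median change of -1.19. Kifc1, which focuses spindle poles, fell 5.34-fold from 24.1 to 4.52 FPKM, Kif20b from 13.1 to 2.91, Kif11, which pushes the poles apart, from 32.2 to 9.82 and Cenpe, which aligns chromosomes, from 11.4 to 3.58. The kinesins Kif15 (3.06 and 3.12 FPKM), Kif20a (50.1 and 42.1 FPKM), Kif22 (41.96 and 36.8 FPKM) and Kif23 (16.7 and 10.7 FPKM) did not pass. Of 26 further mitosis genes, 2 rose and 9 fell (0 and 15 with equal FPKM sums, and 0 and 14 with equal mass). Cenpf, a kinetochore protein, fell from 14.0 to 4.07 FPKM and Ccnb1, cyclin B1, from 77.9 to 27.2. Bub3, of the spindle checkpoint, rose from 77.8 to 131 FPKM (adjusted p 0.0146) and Cdca8, of the chromosomal passenger complex, from 52.9 to 84.0 (adjusted p 0.0339), with neither rescaling.

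The E2F and Rb list, which sets entry into S phase, had 1 gene that rose and 6 that fell of 13 (0 and 8 with equal FPKM sums, and 0 and 8 with equal mass). E2f8, a repressor among the E2F factors, fell 21.2-fold from 8.03 to 0.378 FPKM, its relative E2f7 from 5.17 to 1.88 and Rbl2, a relative of Rb, from 10.9 to 1.65. E2f1, an activator, rose from 11.7 to 20.1 FPKM (adjusted p 0.0290), with neither rescaling, and Rb1 was at 9.04 and 14.0 (adjusted p 0.0777). Of 31 genes of DNA replication, 7 rose and 6 fell (0 and 9 with equal FPKM sums, and 1 and 8 with equal mass). As deposited these were 22.6% and 19.4%, against 18.7% and 24.4% over all genes. Cdt1, which licenses origins, rose from 20.4 to 43.8 FPKM without passing with equal FPKM sums, and Ung, which removes uracil from DNA, from 6.36 to 12.7 (adjusted p 0.0207) with neither rescaling. Fen1, which trims Okazaki fragments, fell from 41.7 to 12.2 FPKM and Gins1, of the replicative helicase, from 6.88 to 2.26 (adjusted p 0.0110). Of 14 G1 cyclins and inhibitors, 3 rose and 2 fell (0 and 6 with equal FPKM sums, and 1 and 6 with equal mass). Cdkn2a, the locus of p16 and Arf, rose from 165 to 395 FPKM without passing with equal FPKM sums. Cdkn1b, the inhibitor p27, fell 3.03-fold from 57.1 to 18.9 FPKM, Cdk2 fell from 13.1 to 6.38, and Ccnd1, cyclin D1, was at 41.8 and 34.9 (adjusted p 0.433).

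As deposited, tubulin genes had more losses than gains and genes of the dynein motor more gains than losses, which turned round for dynein with either rescaling. Of 13 tubulins, 2 rose and 6 fell (0 and 7 with either rescaling). Tubb4b, a widely expressed beta tubulin, fell 4.37-fold from 404 to 92.3 FPKM and Tuba1c from 71.0 to 21.4. Tuba1a fell from 207 to 128 FPKM (adjusted p 0.0238), while Tuba1b rose from 173 to 271 (adjusted p 0.0340) and Tubg1, the gamma tubulin that nucleates microtubules, from 97.7 to 154 (adjusted p 0.0353), with neither rescaling. Tubb5 was at 747 and 962 FPKM (adjusted p 0.308). Reads of near-identical tubulins could have been split between genes. Of 19 genes of cytoplasmic dynein and dynactin, the motor that moves towards the cell centre, 11 rose and 2 fell (1 and 4 with equal FPKM sums, and 2 and 3 with equal mass). Dync1h1, the heavy chain, rose 2.88-fold from 13.5 to 38.7 FPKM, and Dynll2, a light chain, from 111 to 258 without passing with equal FPKM sums. Dync1li1, a light intermediate chain, fell from 20.3 to 5.37 FPKM and Pafah1b1, the dynein regulator Lis1, from 67.6 to 22.8.

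Genes of transcription elongation, the polymerase and mRNA decay went both ways. Of 22 genes around P-TEFb, the kinase that releases paused RNA polymerase II, 4 rose and 8 fell (0 and 10 with equal FPKM sums, and 1 and 10 with equal mass), or 18.2% and 36.4% as deposited against 18.7% and 24.4% over all genes. Ell, an elongation factor, fell 5.42-fold from 11.4 to 2.10 FPKM and Mepce, which holds P-TEFb in its inactive particle, from 32.1 to 9.39. Brd2, a BET protein that binds acetylated histones, rose from 58.6 to 148 FPKM without passing with equal FPKM sums, and Larp7, of the same inactive particle as Mepce, from 13.6 to 28.3 with neither rescaling. Of 30 genes of the polymerase, its general factors and Mediator, 8 rose and 7 fell (0 and 13 with equal FPKM sums, and 3 and 11 with equal mass). As deposited these were 26.7% and 23.3%. The subunits Polr2g (77.6 to 188 FPKM) and Polr2l (14.2 to 33.6 FPKM) rose without passing with equal FPKM sums, while the TATA-binding protein gene Tbp fell from 13.3 to 3.09 FPKM and the Mediator subunit gene Med6 from 11.9 to 3.11.

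Of 20 genes of mRNA decay, 4 rose and 10 fell (2 and 15 with equal FPKM sums, and 2 and 13 with equal mass), or 20% and 50% as deposited, with a median change of -0.61. Zfp36, the protein tristetraprolin that brings AU-rich messages to decay, rose 3.39-fold from 10.2 to 34.6 FPKM and its paralog Zfp36l1 2.57-fold from 28.6 to 73.4. The deadenylase gene Cnot6 fell 3.54-fold from 39.8 to 11.2 FPKM, and Btg2, which recruits that deadenylase, is among the p53 targets above. The splicing list had 1 gene that rose and 6 that fell of 18 (0 and 13 with equal FPKM sums, and 0 and 9 with equal mass). Among SR proteins, Srsf5 fell from 50.3 to 13.3 FPKM, Srsf1 from 36.1 to 11.8 and Srsf10 from 21.3 to 10.6, and Srsf11 rose from 17.3 to 33.04 with neither rescaling. The kinase gene Clk4, whose product phosphorylates SR proteins, fell from 14.4 to 6.001 FPKM, and Clk1 was at 15.4 and 16.5 (adjusted p 0.825). In the complex that assembles spliceosomal particles, Gemin6 fell from 10.1 to 3.31 FPKM beside Gemin4, Strap rose from 73.4 to 137 with neither rescaling, and the other 6 of 9 genes did not pass, among them Smn1 at 23.8 and 37.4 FPKM (adjusted p 0.0746).

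Some nuclear noncoding RNAs and several histone genes rose. Of 12 long noncoding RNAs, 5 rose and 1 fell (2 and 1 with equal FPKM sums, and 2 and 1 with equal mass). Malat1, an abundant RNA of nuclear speckles, rose 2.82-fold from 122 to 345 FPKM and Neat1, the scaffold of paraspeckles, 2.63-fold from 6.51 to 17.2. The snoRNA host genes Gas5 (6.92 to 13.7 FPKM), Snhg1 (69.6 to 138 FPKM) and Snhg8 (15.1 to 31.0 FPKM, adjusted p 0.0218) rose with neither rescaling, and Mir22hg fell from 22.1 to 9.29 FPKM. Of 14 histone genes with polyadenylated messages, 7 rose and 1 fell (4 and 4 with equal FPKM sums, and 5 and 3 with equal mass). Beside H2bu2 and H1f2, the H2B gene H2bc4 rose from 7.79 to 39.8 FPKM and H1f0, a linker histone of resting cells, from 80.01 to 348. H2ax, the histone that marks DNA breaks once phosphorylated, fell from 120.2 to 36.4 FPKM, and H2az1 was at 436 and 410.2 (adjusted p 0.813). Histone genes are near-identical copies, so their reads could have been split between genes.

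Zinc finger genes, most of them coding for DNA-binding repressors, formed the list with the most members and nearly all of its calls were losses. Of 56 tested, 2 rose and 32 fell (0 and 45 with equal FPKM sums, and 0 and 44 with equal mass), with a median change of -0.73. Zfp260 fell 9.60-fold from 11.6 to 1.21 FPKM and Zfp638 8.70-fold from 12.7 to 1.47. Zfp692 rose from 4.001 to 8.86 FPKM (adjusted p 0.0102) and Zfp775 from 1.16 to 2.82 (adjusted p 0.0134), with neither rescaling. The median transcript of the list was 4720 nt long, against 3357 nt over all genes tested.

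Lists of protein synthesis, energy supply and protein turnover held more gains than losses as deposited except in autophagy, and most of these gains did not pass once FPKM sums were made equal. All 36 cytosolic ribosomal protein genes rose as deposited, with a median change of 1.24 (7 and 0 with equal FPKM sums, and 30 and 0 with equal mass). Rpl4 went from 345 to 1021 FPKM and Rpl22 from 79.7 to 233. The median transcript of this list was 1114 nt long. Of 28 translation factors, 17 rose and 2 fell (2 and 4 with equal FPKM sums, and 9 and 3 with equal mass). Eef2, which moves the ribosome along the message, rose 3.02-fold from 780.1 to 2358 FPKM. Eef1a1, which delivers tRNAs to the ribosome, rose from 2922 to 7821 FPKM (adjusted p 0.0240) with neither rescaling. Eif5 fell from 40.9 to 12.4 FPKM and Eif1a from 24.4 to 9.50, both factors that choose the start codon. Of 33 mitochondrial ribosomal proteins, 9 rose and 0 fell, with 0 and 5 by equal FPKM sums, and Mrps15 (38.9 to 87.8 FPKM) and Mrps24 (62.1 to 138 FPKM) led them as deposited.

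Of 35 genes of oxidative phosphorylation, 20 rose and 0 fell (0 and 3 with equal FPKM sums, and 3 and 1 with equal mass), among them Atp5b of the ATP synthase (605 to 1547 FPKM) and Cox8a of cytochrome oxidase (522 to 1231 FPKM), which did not pass with equal FPKM sums. Of 33 proteasome genes, 15 rose and 1 fell (0 and 4 with equal FPKM sums, and 2 and 3 with equal mass). Psmd2 (122 to 273 FPKM) and Psmb7 (155 to 333 FPKM) rose without passing with equal FPKM sums, and Psmd7 fell from 117 to 75.8 FPKM (adjusted p 0.0434). In the lysosome and its proton pump, 17 rose and 1 fell of 29 (2 and 5 with equal FPKM sums, and 8 and 3 with equal mass). The pump subunit gene Atp6v1g1 rose 2.63-fold from 312 to 821 FPKM. Atp6v1b2, another pump subunit, fell from 92.6 to 27.6 FPKM. Of 22 autophagy genes, 3 rose and 4 fell (0 and 6 with equal FPKM sums, and 1 and 6 with equal mass). Ulk1, the kinase that starts autophagy, fell from 24.2 to 8.53 FPKM and Atg16l1 from 7.09 to 2.24, while Gabarap, which coats the autophagosome, rose from 323 to 814 without passing with equal FPKM sums.

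Genes of glycolysis and the hypoxia response went both ways, with 9 of 23 genes higher and 5 lower (2 and 7 with equal FPKM sums, and 3 and 6 with equal mass). Vegfa, the growth factor of blood vessels, rose 3.38-fold from 9.86 to 33.3 FPKM and Pfkfb3, an activator of glycolysis, 3.75-fold from 1.401 to 5.25. Slc2a1, the glucose carrier Glut1, fell 3.60-fold from 287 to 79.6 FPKM and Bnip3, of mitochondrial turnover, from 24.4 to 7.51. Of 21 genes of cholesterol synthesis and uptake, 0 rose and 3 fell (0 and 7 with equal FPKM sums). Sqle, which oxidises squalene, fell from 102 to 39.0 FPKM and Msmo1, a later enzyme of the pathway, from 121 to 49.2.

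**Figure D3:**
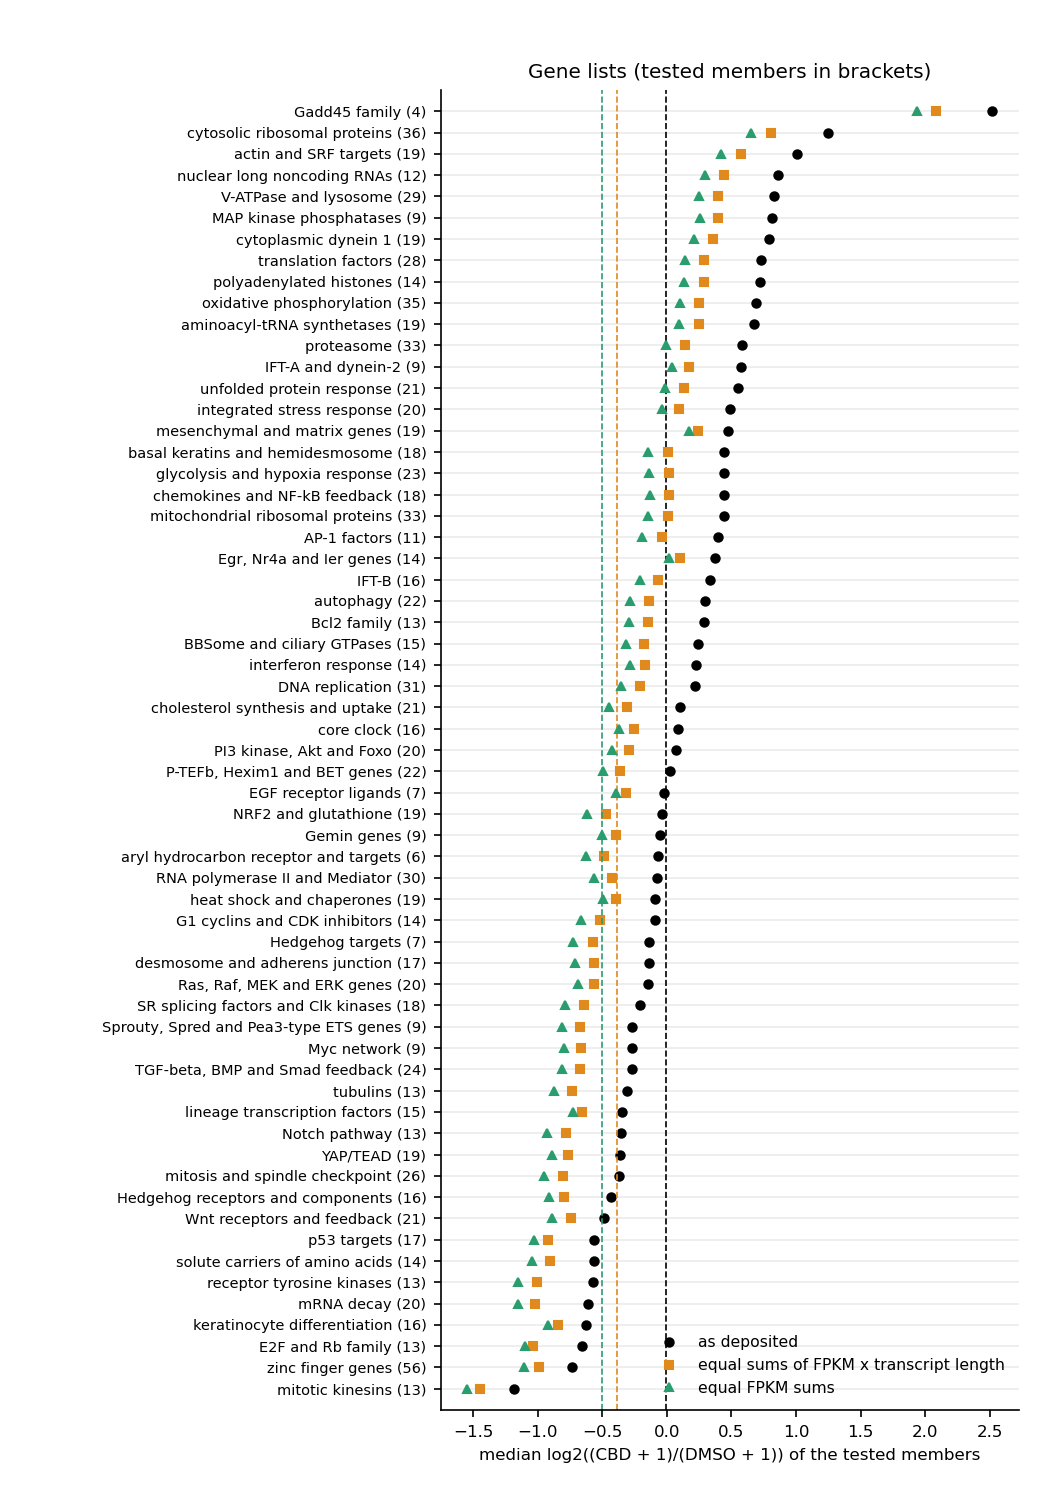
Median change, log2((CBD + 1)/(DMSO + 1)), of the tested members of each gene list in RasV12 cells, with the number of members in brackets, as deposited (black circles), with equal mass (orange squares) and with equal FPKM sums (green triangles). Dashed lines mark the median of all 11075 genes at each scaling, -0.01, -0.38 and -0.51. The Gadd45 list is highest at 2.52 and the mitotic kinesins are lowest at -1.19 as deposited.

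Several genes of the extracellular matrix rose, while the TGF-beta and BMP list rose and fell at about the rate of all genes. Of 19 mesenchymal and matrix genes, 8 rose and 2 fell (6 and 3 with equal FPKM sums, and 8 and 2 with equal mass). Fn1, fibronectin, rose 6.57-fold from 60.8 to 399.5 FPKM and Tnc, tenascin C, 4.13-fold from 46.4 to 192. Cdh2, N-cadherin, fell from 17.2 to 3.72 FPKM and Zeb1, a repressor of epithelial genes, from 1.65 to 0.289 (adjusted p 0.000324). The fibroblast markers given above were near 0 in both groups. Of 24 genes of the TGF-beta and BMP pathways, 4 rose and 6 fell (3 and 14 with equal FPKM sums, and 4 and 13 with equal mass), shares of 16.7% and 25% as deposited against 18.7% and 24.4% over all genes. Smad7, the inhibitory Smad, rose 4.05-fold from 2.98 to 12.1 FPKM and Inhba, a subunit of the ligand activin, 3.54-fold from 6.92 to 24.5. Tgfbr2, the ligand-binding receptor, fell 9.51-fold from 14.2 to 1.49 FPKM and the BMP receptor gene Bmpr1a from 15.5 to 4.37.

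In Notch signalling, which acts between neighbouring cells, 2 ligands rose and 3 receptors fell. Of 13 genes tested, 4 rose and 6 fell (1 and 8 with equal FPKM sums, and 1 and 7 with equal mass). The ligand gene Jag1 rose 2.78-fold from 10.2 to 28.5 FPKM, and Dll1 rose from 12.8 to 26.4 with neither rescaling, while the ligand gene Jag2 was at 42.5 and 33.02 (adjusted p 0.254). The receptors Notch2 (9.62 to 1.17 FPKM), Notch1 (22.5 to 8.97 FPKM) and Notch3 (1.69 to 0.607 FPKM, adjusted p 0.00788) fell, as did Lfng, a sugar transferase that modifies them (53.9 to 22.6 FPKM). The target gene Hes1 rose from 31.7 to 52.4 FPKM (adjusted p 0.0323) with neither rescaling. Among 21 genes of Wnt reception and feedback, 1 rose and 10 fell (0 and 17 with equal FPKM sums, and 0 and 16 with equal mass). The receptor gene Fzd6 fell 6.59-fold from 40.6 to 6.17 FPKM and Apc, of the complex that destroys beta-catenin, 6.35-fold from 6.12 to 0.964. The ligand gene Wnt4 rose from 35.6 to 68.7 FPKM with neither rescaling.

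Targets and partners of YAP and TEAD, factors that read cell shape and crowding, went both ways. Of 19 tested, 5 rose and 8 fell (2 and 12 with equal FPKM sums, and 4 and 11 with equal mass). Ccn1, a matricellular target gene, rose 5.41-fold from 25.4 to 138 FPKM and Amotl2, a target that holds YAP back, 3.29-fold from 8.08 to 26.6. Ccn2, the paralog of Ccn1, fell 3.36-fold from 169 to 50.4 FPKM. The kinase genes of the Hippo pathway that hold YAP in the cytoplasm fell, with Stk4 going from 14.1 to 2.32 FPKM, Lats1 from 7.20 to 1.90 and their scaffold Sav1 from 31.0 to 7.67, while Stk3 was at 13.4 and 14.98 (adjusted p 0.699). Yap1 was at 56.2 and 45.7 FPKM (adjusted p 0.366) and Tead4 fell from 27.1 to 10.1. Of 19 genes of actin and its binding proteins, 13 rose and 0 fell (1 and 1 with equal FPKM sums, and 7 and 1 with equal mass). Myl12a, a myosin light chain, rose from 253 to 621 FPKM without passing with equal FPKM sums.

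In PI3 kinase signalling, which runs beside the Ras cascade, kinase subunits fell and Foxo1 and Foxo3 rose as deposited. Of 20 genes tested, 5 rose and 5 fell (0 and 9 with equal FPKM sums, and 2 and 9 with equal mass). As deposited these were 25% each, against 18.7% and 24.4% over all genes. Pik3r1 is given above (log2 ratio -3.50, SE at most 0.86), and Pik3ca, the catalytic subunit, fell 3.28-fold from 5.79 to 1.77 FPKM. Foxo3 rose from 10.03 to 25.2 FPKM and Foxo1 from 7.97 to 19.4, both transcription factors that Akt keeps out of the nucleus, and neither passed with equal FPKM sums. Sesn1, which Foxo factors and p53 switch on, fell from 26.3 to 9.60 FPKM.

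As deposited, Hedgehog components went both ways, and few target genes passed. Of 16 receptors and components, 3 rose and 7 fell (1 and 8 with equal FPKM sums, and 2 and 8 with equal mass). As deposited these were 18.8% and 43.8% of the list, against 18.7% and 24.4% of all genes. Gpr161, a ciliary receptor that restrains the pathway, fell from 12.2 to 3.14 FPKM and Cdon, a co-receptor, from 6.43 to 2.73 (adjusted p 0.000838). Gas1, another co-receptor, fell from 23.5 to 11.95 FPKM and Gli3, the main repressor among the Gli factors, from 10.2 to 5.02. Grk2, a kinase that acts on Smo, rose from 24.1 to 63.8 FPKM. Prkaca, the catalytic subunit of protein kinase A, rose from 50.2 to 119.6 without passing with equal FPKM sums. Smo, the signal transducer, was at 39.2 and 40.7 FPKM (adjusted p 0.887) and Ptch1 at 0.771 and 1.12 (adjusted p 0.369). Gli1, the usual readout of the pathway, did not reach 1 FPKM, with 0.953 in DMSO and 0.630 in CBD. Of 7 target genes tested, 0 rose and 1 fell (0 and 4 with equal FPKM sums, and 0 and 3 with equal mass). The 1 that fell as deposited was Osr2, from 2.62 to 0.869 FPKM (adjusted p 0.0421). In ASZ cells 0 of these 7 rose and 5 fell.

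Genes of the primary cilium rose and fell in equal number in IFT-B (25% each) and in the BBSome list (26.7% each) as deposited. Over all genes tested 18.7% rose and 24.4% fell, so the losses were near the rate of all genes. The list of IFT-A and the ciliary dynein had 2 gains, both of dynein subunits, and no losses. In IFT-B, the train that carries cargo into the cilium, 4 rose and 4 fell of 16 (0 and 5 with equal FPKM sums, and 2 and 5 with equal mass). Ttc30b fell from 2.86 to 0.0846 FPKM (adjusted p 0.0239), its close copy Ttc30a1 from 1.81 to 0.0933, Ttc26 from 5.15 to 2.14 (adjusted p 0.00424) and Ift80 from 10.5 to 6.07 (adjusted p 0.0315). Ift22 rose from 26.3 to 63.6 FPKM without passing with equal FPKM sums. In IFT-A and the ciliary dynein, which return cargo, 2 rose and 0 fell of 9, with 0 and 1 by either rescaling. The share that rose, 22.2%, was near the 18.7% over all genes. No IFT-A gene rose, and the dynein gene Dync2li1 went from 27.9 to 50.6 FPKM (adjusted p 0.0118) as deposited only. Among the BBSome and ciliary GTPases, 4 rose and 4 fell of 15 (0 and 6 with equal FPKM sums, and 2 and 5 with equal mass). Rab8a, which brings membrane to the cilium, fell from 38.8 to 14.3 FPKM and Rab23, a GTPase that restrains Hedgehog signalling in the mouse, from 8.17 to 2.94.

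Genes that anchor and identify the basal keratinocyte were mixed. Of 18 basal keratin and hemidesmosome genes, 7 rose and 4 fell (2 and 7 with equal FPKM sums, and 4 and 5 with equal mass). Col17a1, a collagen of the anchor, rose from 640.0 to 1361 FPKM with neither rescaling. Krt15, a keratin of basal stem cells, fell from 274 to 130.2 FPKM and Krt16, a keratin of wounded skin, from 377 to 185. Krt17, the gene with the highest DMSO level of all, was at 5902 and 4611 FPKM (adjusted p 0.455). The other genes among the 5 of highest DMSO level were Krt14, Ppia, Mt1 and Mt2. Ppia, a peptidyl-prolyl isomerase, rose from 5341 to 10537 FPKM (adjusted p 0.0109) with neither rescaling. Mt1, a metallothionein that binds zinc, fell from 4987 to 2412 FPKM (adjusted p 0.00171), and Mt2 was at 4372 and 4001 (adjusted p 0.746).

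Of 17 junction genes, 3 rose and 3 fell (0 and 9 with equal FPKM sums, and 0 and 7 with equal mass), with Afdn, a scaffold of adherens junctions, falling 5.13-fold from 31.1 to 6.06 FPKM and Dsg2 from 12.6 to 4.16. Of 16 genes of keratinocyte differentiation, 0 rose and 4 fell (0 and 10 with equal FPKM sums). Krtdap, a secreted protein of differentiating layers, fell from 19.998 to 5.36 FPKM and Ppl, of the cornified envelope, from 39.8 to 12.3. Of 15 transcription factors of skin lineages, 4 rose and 6 fell (1 and 9 with equal FPKM sums, and 2 and 8 with equal mass). Gata3 rose 2.91-fold from 2.46 to 7.14 FPKM, and Msx2 from 0.672 to 2.56 without passing with equal FPKM sums. Runx1 fell 4.80-fold from 33.8 to 7.04 FPKM, Tfap2a from 40.2 to 14.1 and Sox2 from 19.3 to 10.04 (adjusted p 0.0106), while Sox9 was at 121 and 109.7 (adjusted p 0.691).

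Inflammatory genes were few and mixed. Of 18 chemokine and NF-kB feedback genes, 5 rose and 3 fell (2 and 4 with equal FPKM sums, and 3 and 3 with equal mass). Ptgs2, given above, rose 9.91-fold, and Tnfaip3, the NF-kB inhibitor A20, 3.21-fold from 3.72 to 11.9 FPKM. Ccl2, a chemokine that attracts monocytes, fell 5.23-fold from 24.9 to 4.76 FPKM, and Nfkbie, an inhibitor of NF-kB, from 1.66 to 0.442 (adjusted p 0.0154). Of 14 interferon response genes, 2 rose and 3 fell (1 and 5 with equal FPKM sums, and 1 and 5 with equal mass). Oas1a, an antiviral enzyme, rose from 0.348 to 2.13 FPKM, and the signal transducers Stat2 (4.55 to 1.85 FPKM) and Irf9 (6.67 to 3.01 FPKM, adjusted p 0.0119) fell.

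The change moved with transcript length and with level across the whole table. In 10 equal bins of the longest annotated transcript, over 10893 genes with a length, the median change went from 0.50 in the shortest bin to -0.51 in the longest. In the shortest bin, up to 1353 nt, 28.7% of genes rose and 5.41% fell, and in the longest, from 6754 nt, 10.01% rose and 45.2% fell. Across genes, which are not independent and share the libraries, Spearman's rho of the change was -0.32 with transcript length, -0.23 with the span of the gene and 0.22 with the DMSO level. The 10% of genes with the highest DMSO level held 49.1% that rose and 8.31% that fell. The genes that rose had a median transcript of 2742 nt and those that fell 4431 nt. Of the lists above, the cytosolic ribosomal proteins, all gains, had short transcripts. The mitotic kinesins (median 4819 nt) and zinc finger genes, mostly losses, had longer ones than all genes. Other lists lay elsewhere: tubulins (1868 nt) and keratinocyte differentiation (2277 nt) were short with more losses than gains. Actin genes (2890 nt) and aminoacyl-tRNA synthetases (3066 nt), with mostly gains, lay nearer the 3357 nt of all genes. The part of length in these counts was not tested. Single genes of the longest bin went both ways. Clock (9744 nt) fell, while Fn1 (8315 nt), Tnc (7106 nt) and Dync1h1 (14342 nt) rose. These are examples, and more genes of that bin fell than rose.

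**Figure D4:**
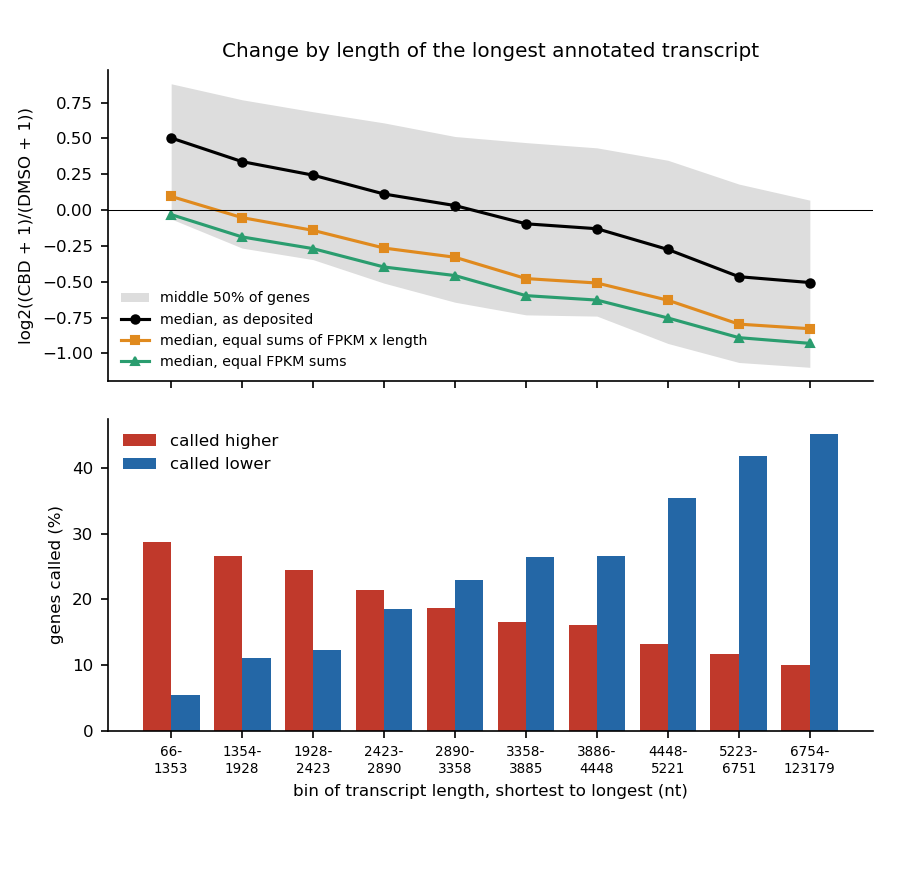
Change by transcript length in RasV12 cells, over 10 equal bins of 10893 genes ordered from shortest to longest in nt. The upper panel gives the median log2((CBD + 1)/(DMSO + 1)) at the 3 scalings with the middle 50% of genes as deposited in grey, and the lower panel the percent of genes that rose (red) and fell (blue). The median as deposited goes from 0.50 to -0.51 and the share that fell from 5.41% to 45.2%.

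At the other end, very short RNAs gave large values without passing. Of 33 genes with a change beyond 3 units in either direction that did not pass, 32 had a transcript under 200 nt, and of 64 tested genes under 200 nt, 2 rose and 0 fell. Mir1938, a microRNA gene chosen after its values were seen, was listed at 0 in DMSO and at 685 FPKM in CBD (adjusted p 0.349). For so short a gene FPKM divides by a length near that of a sequenced fragment, so such levels are not comparable with those of longer genes.

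The same agents were given to ASZ cells without RasV12, where of 10703 genes 1502 rose (14.0%) and 4538 fell (42.4%), with a median change of -0.37. The lines share no libraries, and 10405 genes could be compared between them. Of genes that fell in RasV12 cells and were tested in both, 2425 also fell in ASZ cells, which was 93.8% of those that fell in RasV12 cells and 54.4% of those that fell in ASZ cells. Of genes that rose, 1004 did so in both, 49.9% and 69.1% of each line's. Across the 10405 genes, Spearman's rho between the changes was 0.83, as a description.

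The difference between the lines was tested for each gene on the log2 ratios and their implied SEs, with an ASZ p-value listed at 0 read as 1e-16, and 946 genes differed (9.09%). The log2 ratio was more positive in RasV12 cells for 885 of them and more negative for 61. With each line centred on its own median, an alternative added after the data were seen, 290 differed, 178 and 112 in these directions. Of the 946, 391 had also passed as changed within RasV12 cells. There were 75 genes that rose in RasV12 cells and fell in ASZ cells, and 12 that did the reverse. The SE of a difference is an upper bound where the RasV12 p-value was the lowest of its table or the ASZ p-value was listed at 0. Genes with such an SE passed less easily, and the part of the lowest RasV12 p-values in the count of 946 was not tested.

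The YAP targets Amotl2 and Ccn1 and the Notch ligand gene Jag1 led the genes with a more positive change in RasV12 cells. Amotl2 went from 8.08 to 26.6 FPKM in RasV12 cells and from 22.8 to 3.24 in ASZ cells (difference of log2 ratios 4.53, SE at most 0.54, adjusted p 3.49e-13). Ccn1 went from 52.4 to 28.8 FPKM in ASZ cells, against its 5.41-fold rise in RasV12 cells (difference 3.30, SE at most 0.64). Jag1 went from 36.2 to 8.93 FPKM in ASZ cells (difference 3.49, SE at most 0.44). These 3 genes rose in RasV12 cells and fell in ASZ cells. Another gene of the YAP list, Ccn2, fell in RasV12 cells, as given above. Enc1, an actin-binding protein, rose from 4.58 to 21.6 FPKM in RasV12 cells and was at 7.77 and 4.66 in ASZ cells. The Hedgehog co-receptor Gas1 fell from 23.5 to 11.95 FPKM in RasV12 cells and from 65.9 to 4.21 in ASZ cells (difference 2.99, SE at most 0.57). Prss23, a secreted protease, was at 27.5 and 39.8 FPKM in RasV12 cells (adjusted p 0.0953) and went from 66.5 to 13.6 in ASZ cells.

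Immediate early and heat shock genes led the other direction. Egr1 went from 3.90 to 7.79 FPKM in RasV12 cells and from 2.80 to 83.0 in ASZ cells (difference -3.89, SE at most 0.69, adjusted p 4.88e-06). Dusp1 fell from 54.1 to 27.6 FPKM in RasV12 cells and rose from 6.19 to 46.8 in ASZ cells (difference -3.89, SE at most 0.46). Hspa1a, at 2.90 and 2.66 FPKM in RasV12 cells, went from 2.31 to 26.6 in ASZ cells (difference -3.65, SE at most 0.59). These genes had DMSO levels of their own in each line, and Dusp1 was at 54.1 FPKM in RasV12 DMSO against 6.19 in ASZ DMSO, in tables that were normalised separately. Serpinb2, a protease inhibitor, fell from 7.22 to 1.68 FPKM in RasV12 cells and was at 5.03 and 9.12 in ASZ cells. Ctcfl, a relative of the insulator protein Ctcf, was at 1.26 and 1.95 FPKM in RasV12 cells and went from 1.04 to 13.2 in ASZ cells, and the unnamed transcript Gm20594 went from 43.3 to 17.2 (adjusted p 0.0152) in RasV12 cells and from 76.5 to 244 in ASZ cells.

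**Figure D5:**
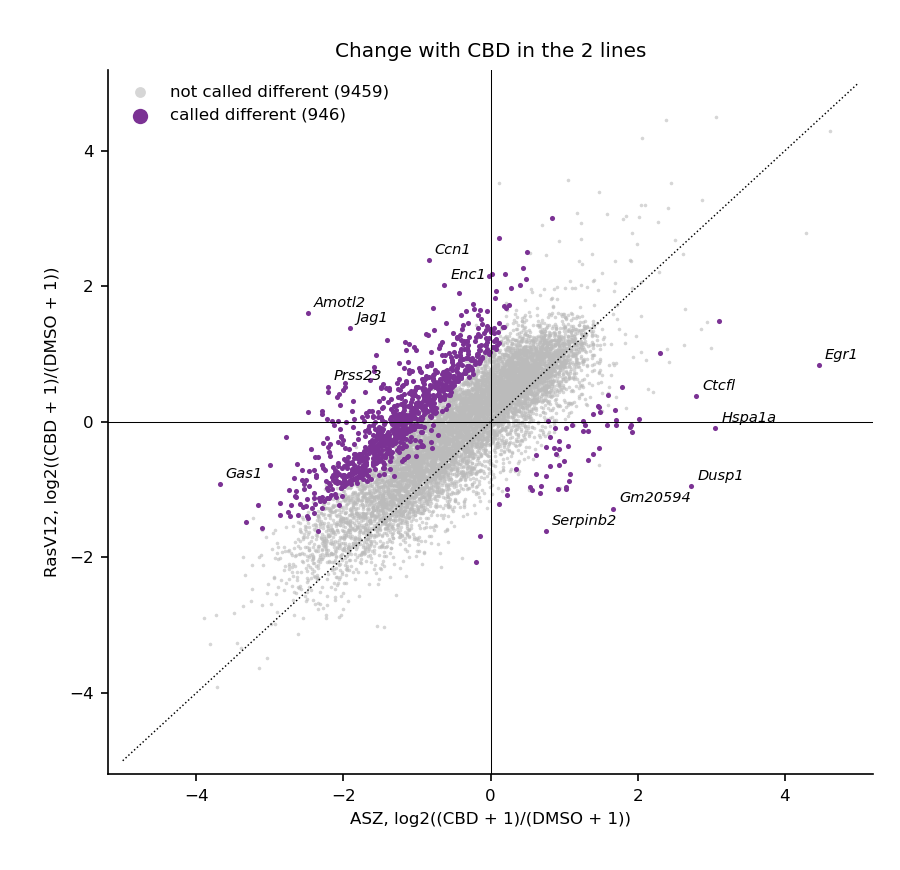
Change with CBD, log2((CBD + 1)/(DMSO + 1)), in ASZ cells (x axis) and RasV12 cells (y axis) for 10405 genes, with the line of equal change dotted. The 946 genes whose log2 ratio differed between the lines are purple and the genes named for the largest differences are labelled. Most purple points lie above the dotted line, and Amotl2, Ccn1 and Jag1 lie at the upper left. By log2 ratio, without the added 1 of the axes, 885 were more positive in RasV12 cells and 61 more negative.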

How the data were processed

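The authors deposited, per the file headers, 1 table for each line with 1 FPKM value per gene for each group of 2 libraries, and their p-value for CBD against DMSO, which is not adjusted. Libraries came from total RNA with a TruSeq kit, per the labels' protocols, and TopHat, Cufflinks and the mm9 build are named in the submitters' processing notes, with no versions or settings given in the sources used here. The RasV12 p-values lie in steps of 5e-05, unlike those of the ASZ table, which is a limit on comparing the lines.

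Rows with a date in place of a name (26) were dropped, RefSeq synonyms gave current symbols for 1277 rows, and of symbols on several rows the highest was kept where all others were under 10% of it. A p-value of 1 was read as no test. Named genes with a test and 1 FPKM or more in either group entered, and Benjamini-Hochberg adjustment of the deposited p-values ran over these genes, with a threshold of 0.05. The implied SE is the size of the log2 ratio over the normal quantile of p. A p-value over 0.9 took the median SE of its level bin instead, and an ASZ p-value listed at 0 (554 genes) was read as 1e-16, since the lowest above 0 was 2.22e-16. A normal test, two-sided, on these SEs compared the lines. Alternatives were 2 rescalings, other minimums, a pseudocount of 0.1, the genes adjusted over and repeated symbols. The tests were tried on simulated data.

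Named genes were the 15 largest gains and losses among changed genes, up to 2 highest and 2 lowest changed members of each list, all members of lists of at most 20 symbols, 9 genes of the Ras, keratinocyte and Hedgehog themes, the 5 of highest level, and the 6 largest differences between lines each way. The members and lists were chosen with earlier results of these data known, so lists have counts and medians but no p. A promoter was found for 79.0% of tested genes, under the 80% needed, so motif shares of changed genes were not compared. Some genes the rule names are not reported here. Python 3.11.15, NumPy 2.4.6, pandas 2.3.3, SciPy 1.17.1 and matplotlib 3.10.9 were used.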

Additional observations from a re-analysis of the deposited data

Results flagged for a closer look

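Of 333 named genes measured in both lines, 58 had a log2 ratio of CBD to DMSO that differed between RasV12 and ASZ cells in the two-sided normal test, 44 more positive and 14 more negative in RasV12 cells. Values below are the RasV12 minus the ASZ log2 ratio, with SEs from 0.34 to 0.85, some of them upper bounds. With equal FPKM sums in each line 9 of the 58 no longer passed, and with each line centred on its median 28, all among the 44. These alternatives move every value by -0.075 and by -0.44, so they weaken the more positive values and strengthen the more negative ones.

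Among receptors, ligands and feedback genes the value was 1.87 for Epha2, 1.46 for Met, 1.04 for Igf1r, 2.56 for Dusp8, 2.19 for Dusp14 and -3.89 for Dusp1. In the YAP and Notch lists it was 4.53 for Amotl2, 3.30 for Ccn1, 3.49 for Jag1, 2.74 for Dll1, 1.31 for Jag2, 1.48 for Notch1 and 1.65 for Lfng. In the TGF-beta, matrix and inflammation lists it was 2.64 for Inhba, 1.77 for Smad7, 1.64 for Tnc, 2.16 for Tnfaip3 and 2.44 for Ptgs2. Hedgehog and cilium genes were at 2.99 for Gas1, 1.97 for Ptch1, 1.56 for Gli3, 1.01 for Smo and 1.42 for Ift80. Of these genes with a positive value, Epha2, Dusp8, Dusp14, Amotl2, Ccn1, Jag1, Dll1, Inhba, Tnfaip3 and Gas1 still passed with each line centred. The others did not, and Igf1r, Tnc, Ptgs2, Ptch1 and Smo also failed with equal FPKM sums.

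Transcription factors with a more positive value were Msx2 at 3.12, Fosl2 at 2.34, Zfp775 at 1.92, E2f7 at 1.83, Myc at 1.76, Foxo1 at 1.70, Foxo3 at 1.56, Hlf at 1.41, Srf at 1.41, Sox2 at 1.37 and E2f1 at 1.14. Of other genes, the value was 2.98 for Enc1, 2.83 for Prss23, 2.31 for Cdt1, 2.22 for Plk2, 1.67 for Ung, 1.64 for Mcl1, 1.64 for H1f0, 1.35 for Zfp36l1, 1.24 for Brd2, 1.20 for Pecam1 and 1.17 for Kif22. Among these factors and other genes, only Msx2, Fosl2, Enc1, Prss23, Cdt1 and Mcl1 still passed with each line centred. E2f1, H1f0, Pecam1 and Kif22 also failed with equal FPKM sums.

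The more negative values lay among immediate early genes, with -3.89 for Egr1, -1.99 for Atf3, -1.32 for Ier2 and -1.21 for Jund, and among heat shock genes, with -3.65 for Hspa1a and -1.67 for Hspa1b. They also held Mt1 at -1.72 and Mt2 at -1.46, Krt17 at -1.41, Malat1 at -1.62, Serpinb2 at -2.96, Ctcfl at -3.04 and Gm20594 at -3.00. These, with Dusp1, passed under both alternatives, which move each of them further down, so this was no check on them. The part of the lines' different p-values in these differences was not tested.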

How the results depend on the processing

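The count of genes that rose, 2072, was 254 with equal FPKM sums, 663 with equal mass and 885 when a change of at least 1 log2 unit was also asked. The count that fell, 2707, was 4682, 4137 and 1704 under the same 3 settings. With no minimum, a minimum of 5 FPKM, adjustment over all rows with a test, or repeated symbols left out, between 1995 and 2077 genes rose and between 2010 and 2760 fell. The 946 genes that differed between the lines were 737 with equal FPKM sums, 841 with a minimum of 5 FPKM and 290 with each line centred on its median, a setting chosen after seeing the data. With SEs from the level bin for ASZ genes whose p-value is listed at 0, also chosen then, all 946 still differed, among 993. The pseudocount sets only the size of a change and not its test, so it has no bearing on calls. Of 349 named genes, with equal FPKM sums 82 lost their call and 28 gained one, with equal mass 46 and 17, and no called gene changed direction under either. Which scaling matches the RNA content of the cells was not tested. No paired analysis was possible because each group has 1 pooled value and no library has a value of its own, and leaving out a replicate was not run for the same reason. Depth limits low genes, whose median implied SE was 0.53 log2 units at 1 to 3 FPKM.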
